A study of Rattus norvegicus with 20 samples.

Results

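In rat soleus muscle, 93 genes were ordered by how complete a spinal cord injury was: lowest in uninjured rats, intermediate after a contusion and highest after a complete transection. They were chosen by their measured values, from 13398 genes that passed a filter on low counts, and made up 0.694% of them. A gene qualified when all 4 uninjured libraries lay below all 4 sedentary contusion libraries and these below all 4 transection libraries. Its mean also had to reach 1 CPM (counts scaled to a common library size with edgeR's TMM factors), and its transection mean could not exceed 4 times its uninjured mean. The order of these 3 groups is therefore given as a description, without a test. The libraries of contused rats given swimming or shallow water walking had no place in the order and were read against it. They did enter the scaling, the filter on low counts and the mean level, so the choice was not wholly free of them: without swimming library 1 the rule found 88 genes, of which 83 were among the 93.

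The 20 poly-A RNA libraries came from the soleus of Sprague-Dawley rats, in 5 groups of 4. The groups were contused rats given swimming, contused rats given shallow water walking, uninjured unexercised rats, unexercised rats with a 25 g-cm contusion, and unexercised rats with a complete transection, both injuries at thoracic level T2 after a laminectomy. Exercise started 2.5 weeks after contusion and took place on 5 days a week for 10 weeks. Every rat moved to a small cage after 4 days, so movement was limited in the uninjured group too. Muscle was taken at 13.5 weeks in both exercise groups, 11.5 weeks after contusion alone and 8.5 weeks after transection, and uninjured rats are labelled 11.5 weeks. Injury completeness and time after injury cannot be told apart between transection and contusion, nor exercise and time between the exercised and the sedentary contused rats. The labels give neither the sex nor the age of the rats, and do not say whether uninjured rats had the laminectomy.

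The soleus is a slow, fatigue-resistant muscle of the calf that holds posture, and its slow fibres depend on steady nerve activity and on load. A lesion of the upper thoracic cord cuts the descending drive to the hind limb while the lower motor neurons stay connected to the muscle. A transection severs every descending axon, and a contusion usually leaves a rim of white matter. Unloaded or silenced soleus is known to lose mass and to move from slow towards fast fibre types. The deposited counts carry Ensembl identifiers with no gene names, and none of the 93 could be paired with a name from the RefSeq table at hand (assembly GRCr8), which lists no Ensembl identifiers. The functions of these genes are therefore not described, 4 identifiers are named, and the tissue label was not checked against marker genes. In whole muscle, fewer cells of a type and less RNA per cell cannot be told apart.

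Total counts ran from 21165832 to 39729930 per library. Transection libraries had scaling factors of 0.711 to 0.953, below the 0.982 to 1.09 of uninjured libraries. The factors were 1.06 to 1.18 in swimming, 0.948 to 1.165 in walking and 0.928 to 1.05 in contusion libraries. Swimming library 2 stood apart on the 93 genes: it held the highest of the 4 swimming values for 57 of them (61.3%), against 29.5% of all tested genes. In the walking group the most frequent highest library was library 1, for 36 of the 93 genes (38.7%, against 32.5% of all tested genes). Results that rest on swimming library 2 are given with and without it.

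The 93 genes differed more in abundance than in the size of the change. Their mean level ran from 1.18 to 30002 CPM, with a median of 31.3 CPM against 11.5 CPM over all tested genes. The ratio of the transection mean to the uninjured mean ran from 1.29 to 3.77, with a median of 2.08. It was above 2 in 51 genes, above 3 in 10 and below 1.5 in 11. The lowest count of any of them in any library was 12, and the median over the genes of this lowest count was 432.

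The second step was usually the larger one. The contusion mean was 1.10 to 2.12 times the uninjured mean, with a median of 1.35. The transection mean was 1.13 to 2.21 times the contusion mean, with a median of 1.53. In 72 of the 93 genes the step between contusion and transection exceeded the step between uninjured and contusion, and in 21 the first step was the larger.

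**Figure D1:**
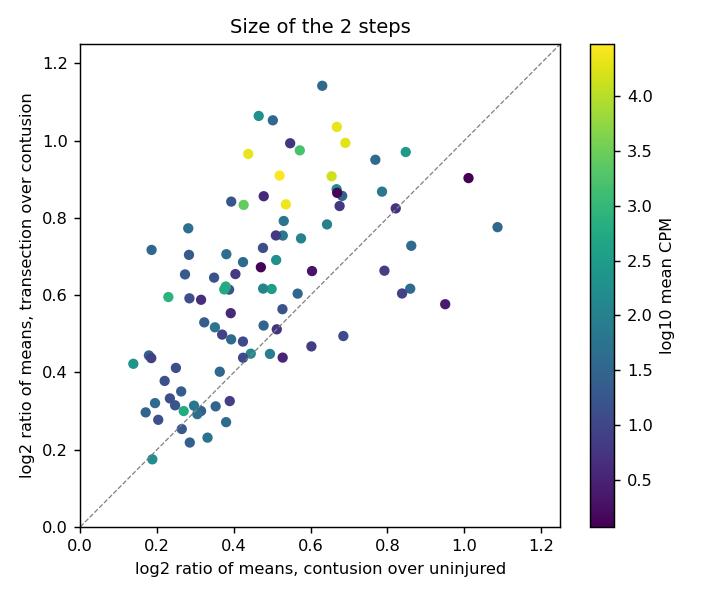
Size of both steps for each of the 93 genes: log2 ratio of the contusion mean to the uninjured mean on the horizontal axis, log2 ratio of the transection mean to the contusion mean on the vertical axis, colour by log10 mean CPM, and a dashed line where the steps are equal. 72 genes lie above the line and 21 below it; both axes contain the contusion mean, and the rule keeps all points above 0.

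The gaps between neighbouring groups were narrow for many of these genes. The lowest contusion library was 1.00 to 1.63 times the highest uninjured library, with a median of 1.05, and in 45 genes this gap was under 5%. The lowest transection library was 1.00 to 1.59 times the highest contusion library, with a median of 1.14, and 19 genes had a gap under 5%. Without uninjured library 2 the rule found 143 genes, of which 91 were among the 93, and without contusion library 4 it found 141, of which 84 were among them. Leaving out a library of the 3 groups that chose the genes makes the rule looser, so a larger set is partly built in. Scaled by library totals alone, the rule found 27 genes, 26 of them among the 93. Under that scaling the median log2 ratio of transection to uninjured over all genes was -0.32, against 0.02 with TMM.

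Near the 4-fold limit, the 3 genes just inside had transection-to-uninjured ratios of 3.77, 3.64 and 3.53. Just outside it stood genes with ratios of 4.64, 4.84 and 4.93. In all 16 genes had the same order but a ratio above the limit, the highest being 273. A further 2 genes had the order with means of 0.440 and 0.432 CPM, below the abundance limit, while the lowest means inside it were 1.18, 1.24 and 1.29 CPM. Among genes with a mean of at least 1 CPM, 109 showed the rising order at any fold (0.814% of the tested genes) and 141 the opposite one, with transection lowest and uninjured highest (1.05%). Contusion was the highest of the 3 groups in 11 genes, and the lowest in 1.

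**Figure D2:**
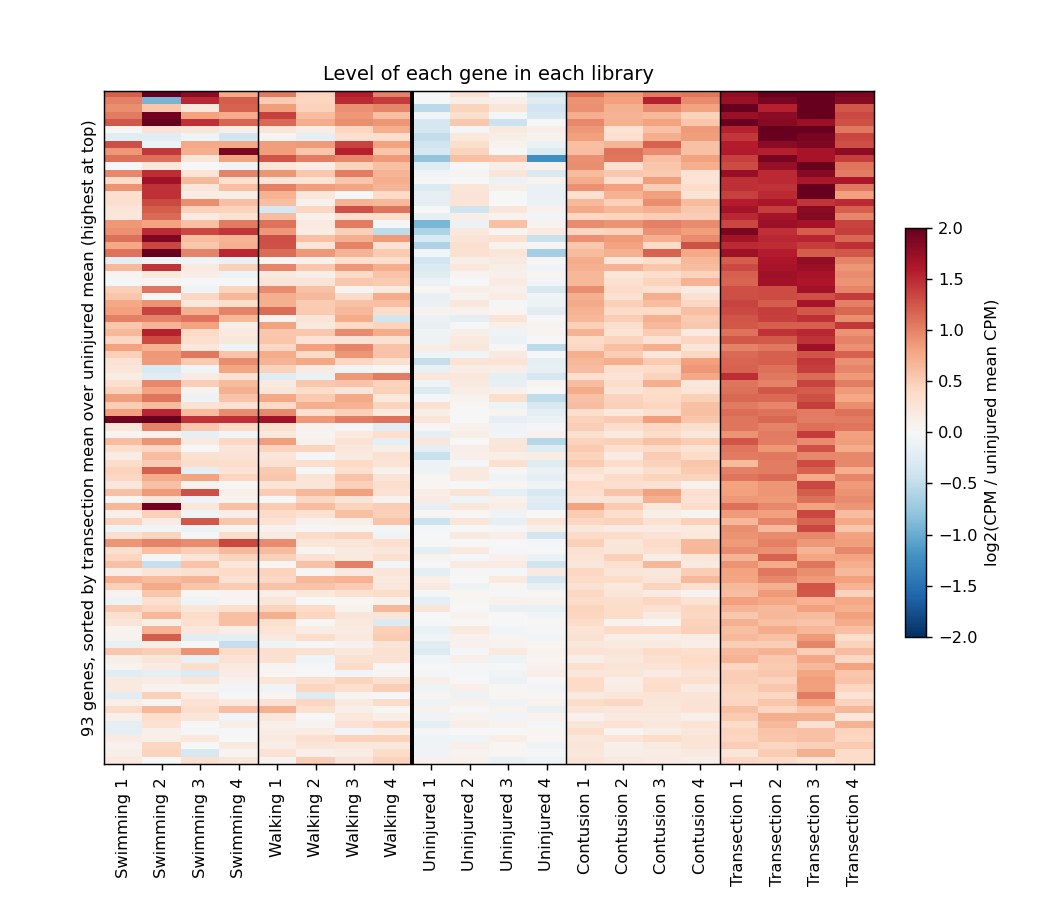
Level of each of the 93 genes (rows, sorted by the ratio of transection to uninjured means) in each of the 20 libraries (columns), as log2 of CPM over the uninjured mean; colours stop at 2 in either direction. The 3 groups right of the thick line chose the genes. Left of it, swimming library 2 holds the highest swimming value in 57 of the 93 genes.

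On the TMM scale the genes as a whole stayed near the contusion level in both exercised groups. Each gene was given a position on its own log2 scale, with 0 at the uninjured mean and 1 at the transection mean. The median position of the 93 genes was 0.459 in swimming and 0.428 in walking muscle, beside 0.426 in contusion muscle, where the rule holds it between 0 and 1. The 4 swimming libraries had median positions of 0.372, 0.678, 0.303 and 0.358, and the 4 walking libraries 0.445, 0.289, 0.397 and 0.373. Contusion libraries stood at 0.483, 0.368, 0.402 and 0.432. All exercised libraries lay above the uninjured ones, which reached 0.0975, and below the transection ones, which started at 0.841. Without swimming library 2 the median position in swimming muscle was 0.362. Scaled by library totals alone, the medians were 0.824 in swimming and 0.603 in walking muscle, where the median log2 ratio of swimming to contusion over all genes was 0.19, against 0.01 with TMM. Under that scaling the median log2 ratio to uninjured over the 93 genes was 0.59 in swimming, 0.35 in walking and 0.33 in contusion muscle. In transection muscle it was 0.72.

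Single genes were spread widely around this median. By group means, swimming muscle was below uninjured muscle in 7 genes, between uninjured and contusion in 39, between contusion and transection in 42, and at or above transection in 5. In walking muscle the numbers were 1, 48, 43 and 1. The swimming numbers were 14, 45, 31 and 3 without swimming library 2. Positions ran from -0.206 to 2.13 in swimming muscle, or from -0.308 to 1.53 without swimming library 2, and from -0.0773 to 1.12 in walking muscle. The median coefficient of variation within the group was 18.5% in swimming and 14.3% in walking libraries over the 93 genes, against 20.6% and 17.8% over all tested genes.

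**Figure D3:**
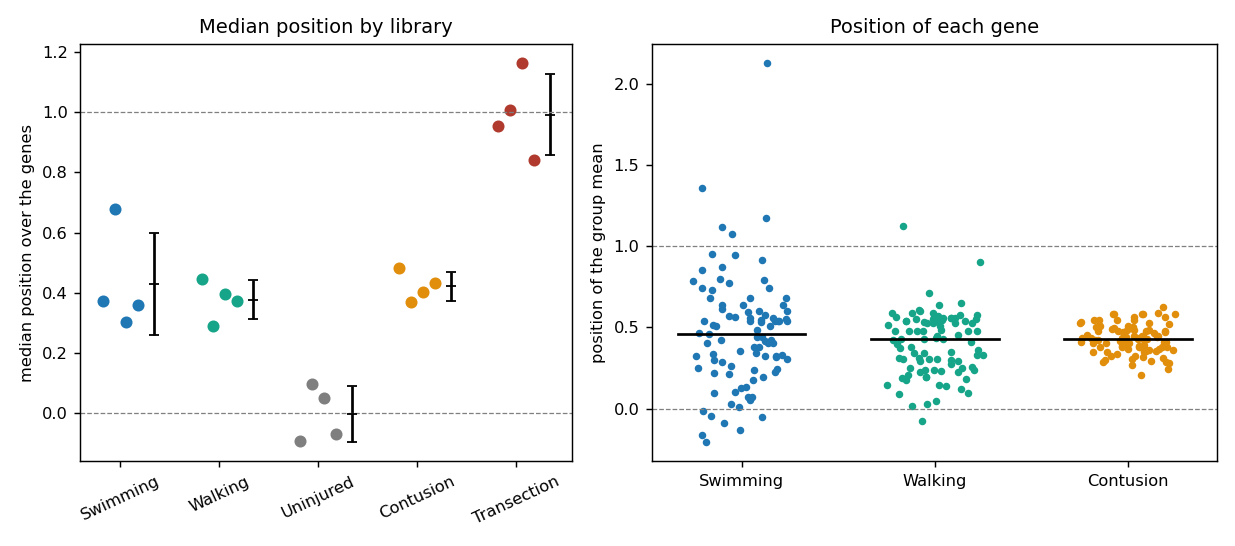
Left, the median position of the 93 genes in each library (points) with the group mean and SD (bars, n = 4); right, the position of each gene's group mean, with the median as a line. Position is 0 at the uninjured mean and 1 at the transection mean of each gene, both dashed. Swimming genes spread from -0.206 to 2.13 and walking genes from -0.0773 to 1.12; the rule itself confines the contusion genes.

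Swimming against walking is the comparison in which neither group had a place in the order that chose the genes, and both were taken at the same time. Both entered the scaling, the filter and the mean level. None of the 93 genes passed (edgeR quasi-likelihood test, Benjamini-Hochberg adjusted p below 0.05 over all genes; smallest adjusted p = 0.161), where 0.00746% of all tested genes did. The median log2 fold change over the 93 genes was 0.05, against 0.01 over all tested genes, and single genes ran from -0.39 to 1.40. The fold change was above 0 in 53 of the 93 genes, against 51.6% of all tested genes. Without swimming library 2 the median was -0.04, single genes ran from -0.43 to 0.91, and 39 of the 93 were above 0, against 50% of all tested genes. At an unadjusted p under 0.05, a limit that is no call, 9 genes were higher and 2 lower after swimming, where 8% of all tested genes were higher and 7.32% lower. Together these were 11.8% of the 93 and 15.3% of all tested genes. DESeq2 and voom each called 3 of the genes, all higher after swimming, where DESeq2 called 0.605% and voom 1.52% of all tested genes higher. When walking library 1 was left out edgeR called 5, all higher, where 1.45% of all tested genes were called higher. The groups did not overlap in 3 genes that were higher after swimming (3.23%, against 3.08% of all tested genes) and in 2 that were lower (2.15%, against 3.5%). The shares of genes without overlap are close to those of all tested genes.

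**Figure D4:**
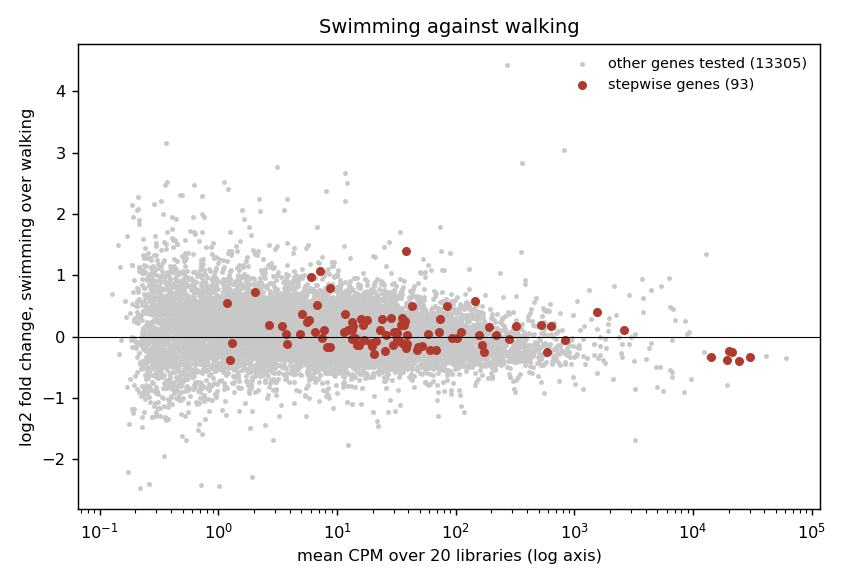
Log2 fold change of swimming over walking (vertical) against mean CPM over all 20 libraries (horizontal, log axis), for the 93 stepwise genes (red) and the other tested genes (grey). Most red points lie near 0, and the 6 most abundant stepwise genes lie together below it, between -0.39 and -0.23.

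Against contusion alone, 5 of the 93 genes were called after swimming, 3 higher and 2 lower (5.38%; edgeR adjusted p below 0.05). This share is close to the 4.48% of all tested genes that were called, 2.22% higher and 2.25% lower. Swimming muscle was taken at 13.5 weeks and contusion muscle at 11.5 weeks, so exercise and time cannot be told apart here. The median log2 fold change over the 93 was 0.0048, against 0.01 over all tested genes. All 4 swimming libraries lay above all 4 contusion libraries in 8 of the 93 genes, against 7.38% of all tested genes, and below them in 10, against 6.81%. The genes called higher had log2 fold changes of 0.60 (SE 0.14), 0.64 (SE 0.17) and 1.67 (SE 0.31), with edgeR adjusted p = 0.0274, 0.0392 and 0.0163. These fold changes were 0.62, 0.43 and 1.03 without swimming library 2. The genes called lower had log2 fold changes of -0.65 (SE 0.18) and -0.91 (SE 0.19). Contusion libraries helped choose the genes, so this count is not independent of the choice. It also rested on single libraries. With edgeR, 0, 2, 3 and 1 of the genes were called when contusion library 1, 2, 3 or 4 was left out. The shares called of all tested genes were then 0.00733%, 0.477%, 3.7% and 0.4%. Without swimming library 2 the number was 2, where 0.794% of all tested genes were called. It was 3 without uninjured library 2, where 2.95% were called, and 8 without transection library 3, where 7.63% were. Scaled by library totals alone, 4 were higher and 1 lower, where 2.09% of all tested genes were higher and 0.142% lower.

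Walking against contusion gave 0 called genes of the 93 with edgeR, DESeq2 and voom, and 0% of all tested genes were called with edgeR. At an unadjusted p under 0.05 there were 4 (4.30%, against 3.18% of all tested genes), 0 higher and 4 lower after walking, where 1.16% of all tested genes were higher and 2.02% lower. All 4 walking libraries lay below all 4 contusion libraries in 5 genes (5.38%, against 1.87%) and above them in 1 (1.08%, against 1.05%). As contusion libraries helped choose the genes, these counts are not independent of the choice. The median log2 fold change over the 93 was -0.02, against 0.01 over all tested genes, and single genes ran from -0.54 to 0.60.

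Both exercised groups stood above uninjured muscle and below transected muscle for most of the genes. The uninjured and the transection libraries helped choose the genes, so counts against them are not independent of the choice. All 4 swimming libraries lay above all 4 uninjured libraries in 38 of the 93 genes (40.9%, against 11.5% of all tested genes), and all 4 walking libraries did so in 48 (51.6%, against 4.41%). In 24 genes both exercised groups did, and in 31 neither did, a split that was not counted over all tested genes. The reverse separation held in 0 genes for either group, against 11.6% of all tested genes for swimming and 5.09% for walking. By the edgeR test, swimming was higher than uninjured in 44 of the 93 genes and lower in 0, where 9.99% of all tested genes were higher and 10.1% lower. At an unadjusted p under 0.05 it was higher in 58 (62.4%) and lower in 0, where 17.8% of all tested genes were higher and 16.8% lower, together 34.7%. Walking was higher in 3 and lower in 0, where 0.164% of all tested genes were higher and 0.299% lower, together 0.463%. At an unadjusted p under 0.05 walking was higher in 53 (57%, against 6.44%) and lower in 0, against 7.19%. DESeq2 and voom each called 21 genes for walking against uninjured, all higher, where DESeq2 called 1.13% and voom 1.12% of all tested genes higher. The number with edgeR was 15 without swimming library 2, where 0.610% of all tested genes were higher. It was 1 without uninjured library 2, contusion library 4, swimming library 4, walking library 2 or walking library 4. There 0.0816% to 0.17% of all tested genes were called higher. The number was 0 without uninjured library 1 or 4, contusion library 1 or 2, or walking library 1 or 3. It was also 0 without transection library 1, 2 or 4. In these cases 0.0147% to 0.119% of all tested genes were called higher, against 0.164% with every library.

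Against transection, swimming was lower in 60 of the 93 genes and higher in 1 (edgeR adjusted p below 0.05), where 13.8% of all tested genes were lower and 15.6% higher, together 29.4%. The rule chose genes with high transection values, so the surplus of lower genes is partly built in, for swimming and for walking. At an unadjusted p under 0.05, 72 of the 93 differed, against 39.8% of all tested genes. Scaled by library totals alone, 10 were lower and 3 higher, where 1.93% of all tested genes were lower and 35.8% higher. Walking was lower than transection in 62 genes and higher in 0, where 8.96% of all tested genes were lower and 11% higher, and 21 were lower with library totals only, where 1.66% of all tested genes were lower.

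A minority of the genes kept the full order when exercised libraries took the place of the contusion libraries. With walking libraries in the middle, 78 tested genes met the rule (0.582%), and 33 of them were among the 93, which is 42.3% of the 78 and 35.5% of the 93. With swimming libraries in the middle, 38 tested genes met it (0.284%), and 10 were among the 93, which is 26.3% of the 38 and 10.8% of the 93. The lists share the uninjured and the transection libraries.

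The most abundant of these genes are described apart, a group singled out after its values were seen. In all, 6 genes had a mean above 10000 CPM, from 14249 to 30002 CPM, and they held 92.6% of the counts of the 93. After transection they were 2.58 to 3.26 times the uninjured mean. Together they took 7.53%, 9.67%, 10.4% and 8.65% of all counts in uninjured libraries, 13.5%, 10.9%, 11.6% and 13.9% in contusion libraries, and 19.0%, 22.6%, 21.2% and 16.8% in transection libraries.

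After swimming these 6 genes lay inside the uninjured range as a sum. They took 9.60%, 9.62%, 9.35% and 9.39% of all counts in swimming libraries, all below the 4 contusion libraries. In walking libraries they took 11.2%, 9.76%, 11.3% and 11.5%, which overlapped both. Swimming means were 0.531 to 0.779 times the contusion means and 0.858 to 1.13 times the uninjured means. All 4 swimming libraries lay below all 4 contusion libraries in 5 of the 6 genes, where 6.81% of all tested genes did so, and below all 4 walking libraries in 2, where 3.5% did. The 6 genes share libraries and are not independent replicates, and the shares of all tested genes are not matched for abundance.

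Of the 6, 2 passed the test against contusion (edgeR adjusted p from 0.0196 to 0.221 over the 6), and 0 passed against walking (0.284 to 0.600). Of the 7 genes of this abundance outside the 93, 6 had a swimming mean below the contusion mean. Their median log2 fold change was -0.26 against contusion and -0.31 against walking, beside -0.57 and -0.33 for the 6. In counts not scaled by TMM, the remaining 87 genes took 0.968% to 1.60% of all counts in swimming libraries, with swimming library 2 highest. They took 0.956% to 1.08% in walking and 0.855% to 0.960% in contusion libraries. On the TMM scale their median position was 0.414, 0.725, 0.337 and 0.394 in the 4 swimming libraries. It was 0.481, 0.386, 0.420 and 0.426 in the contusion libraries, so only swimming library 2 lay above all of these.

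The fold change of swimming over walking differed with abundance, in the 93 genes and in all tested genes. The median log2 fold change was 0.18 in the 21 genes under 10 CPM, 0.06 in the 50 genes between 10 and 100 CPM and -0.03 in the 22 genes over 100 CPM, beside 0.11, -0.02 and -0.14 over all tested genes of the same abundance. Without swimming library 2 the medians were 0.03, -0.02 and -0.17 in the 93, beside 0.09, -0.04 and -0.15 over all tested genes. Across the 93 genes, which are not independent replicates and share libraries, the Spearman correlation of this fold change was -0.296 with mean CPM and 0.178 with the log2 ratio of transection to uninjured.

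The identifiers named are the most abundant gene and the gene with the most extreme ratio of swimming to contusion, on each side of the contusion mean. ENSRNOG00000031979, the most abundant of the 93, had 18230.4, 19442, 19890.4 and 18818 CPM in swimming libraries, 21733, 22033, 25943 and 26529.9 CPM in walking libraries and 34704, 24748, 27042 and 33037 CPM in contusion libraries. It had 16050.3, 22649, 23565 and 21154 CPM in uninjured libraries and 48042, 64029, 70926 and 41485 CPM in transection libraries. All swimming libraries were below all walking and all contusion libraries, and inside the uninjured range. Its log2 fold change with swimming was -0.65 against contusion (SE 0.18, edgeR adjusted p = 0.0452) and -0.33 against walking (SE 0.18, adjusted p = 0.371). The call against contusion was lost, at adjusted p of 0.0505 to 0.153, without uninjured library 2, 3 or 4, any contusion library, any swimming library, or walking library 2 or 3, at log2 fold changes of -0.73 to -0.57. It was also lost with library totals only (-0.46, adjusted p = 0.0535), without the low-count filter (-0.64, adjusted p = 0.0525), with the replicate number as a block (-0.66, adjusted p = 0.0600) and with the compared groups alone (-0.64, adjusted p = 0.0801), so that it was lost in 17 of 29 alternatives. Its adjusted p spanned 5.83e-03 to 0.153 over them.

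ENSRNOG00000030371 was the gene with the lowest ratio of swimming to contusion. It had 10578, 10708, 11755 and 9526 CPM in swimming libraries, 12943, 11005, 15431 and 15869.7 CPM in walking libraries and 21989, 15621, 20433 and 22049 CPM in contusion libraries. Uninjured libraries held 8844, 14389, 13417 and 12987 CPM, and transection libraries 33198, 49094, 46029.7 and 31188 CPM. Swimming libraries lay below all contusion libraries, inside the uninjured range, and overlapped the walking libraries. Its log2 fold change with swimming was -0.91 against contusion (SE 0.19, edgeR adjusted p = 0.0196), and the difference from walking was -0.38 (SE 0.19, adjusted p = 0.345). The call against contusion was lost without contusion library 1 (-0.86, adjusted p = 0.0806) or contusion library 4 (-0.84, adjusted p = 0.0551). Its adjusted p spanned 2.60e-04 to 0.0806 under the alternatives tried.

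ENSRNOG00000020514 was the gene with the highest ratio of swimming to contusion. It had 11.7, 30.6, 8.32 and 8.44 CPM in swimming libraries, 9.75, 5.60, 6.21 and 6.51 CPM in walking libraries and 4.18, 4.40, 5.48 and 4.47 CPM in contusion libraries. Uninjured libraries held 3.61, 3.06, 2.73 and 2.81 CPM, and transection libraries 6.40, 6.76, 6.18 and 6.28 CPM. All 4 swimming libraries were above all 4 transection libraries. It was the 1 gene of the 93 with that separation (1.08%, against 13.3% of all tested genes). Its log2 fold change with swimming was 1.67 against contusion (SE 0.31, edgeR adjusted p = 0.0163), and 1.20 against transection (adjusted p = 5.68e-03). The change against transection was 0.57 without swimming library 2 (edgeR adjusted p = 0.0266). It was no longer called with the compared groups alone (1.23, adjusted p = 0.0605) or without both swimming library 2 and transection library 3 (0.54, adjusted p = 0.0515). Without swimming library 2 the change against contusion was 1.03, and the call was lost without contusion library 1 (1.62, adjusted p = 0.0674) and with the compared groups alone (1.68, adjusted p = 0.0648). Against walking the log2 difference was 1.07 and did not pass (adjusted p = 0.174), though it did with DESeq2 (0.0437), with voom (0.0409) and without walking library 1 (0.0469). Under the alternatives tried that adjusted p spanned 0.0409 to 0.490, and without swimming library 2 the difference was 0.43. The adjusted p against contusion spanned 7.10e-05 to 0.0674.

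ENSRNOG00000018630 was the most abundant gene with a swimming mean above the contusion mean. It had 2555, 4778, 2141 and 1864 CPM in swimming libraries, 2344, 2366, 3105 and 2699.9 CPM in walking libraries and 2621, 1956, 2302 and 1828 CPM in contusion libraries. Uninjured libraries held 1523, 1758, 1525 and 1677 CPM, and transection libraries 3458, 4412, 4610.3 and 3033 CPM. Swimming and contusion libraries overlapped, and of the swimming libraries library 2 reached the transection range, as walking library 3 did. The log2 difference between swimming and contusion was 0.38 (SE 0.23), and at an adjusted p of 0.335 by edgeR it missed the threshold. Without swimming library 2 it was 0.0057, and without both this library and transection library 3 it was -0.011. Against walking it was 0.11 (edgeR adjusted p = 0.844), and it turned to -0.27 without swimming library 2.

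**Figure D5:**
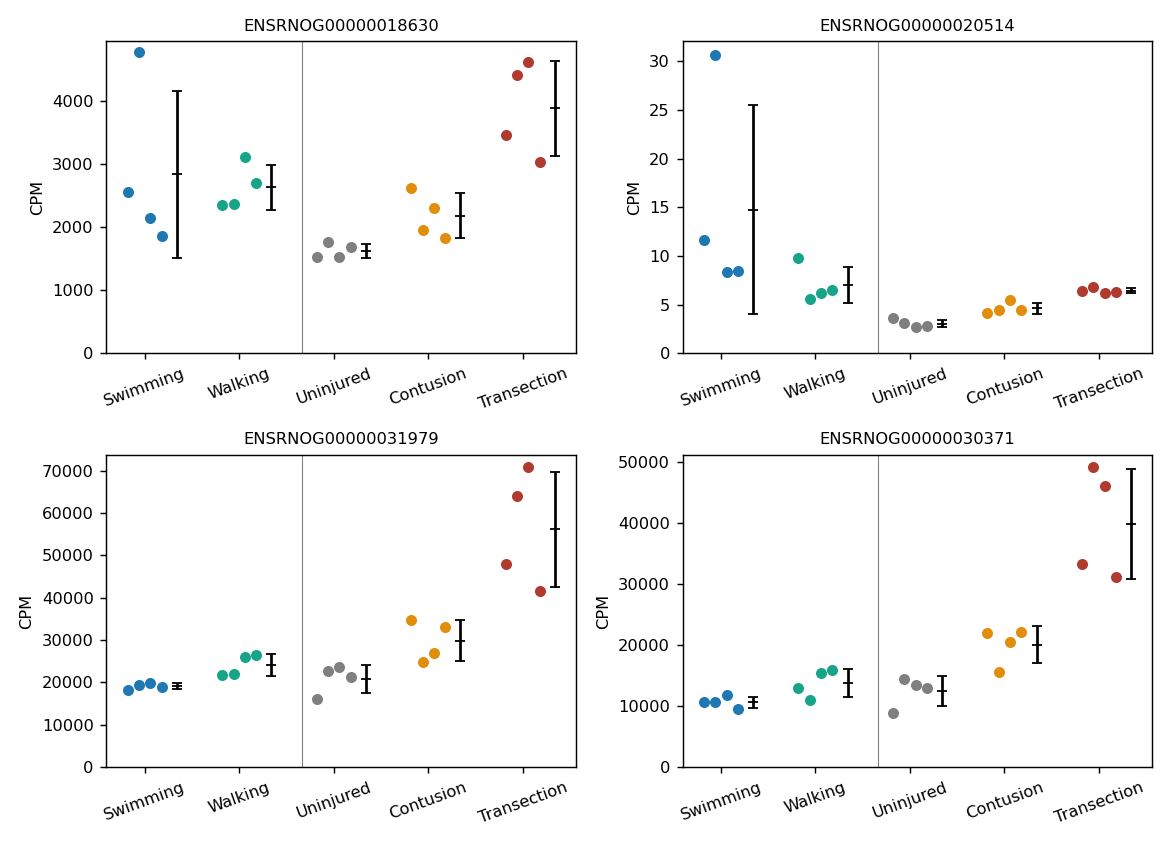
CPM of the 4 named identifiers in each library (points), with the group mean and SD (bars, n = 4), on axes that start at 0. ENSRNOG00000031979 and ENSRNOG00000030371 lie inside the uninjured range after swimming, ENSRNOG00000020514 lies above the transection range after swimming, and ENSRNOG00000018630 has its highest swimming value, 4778 CPM, in library 2.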

How the data were processed

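The deposited values are whole-number counts per Ensembl gene, not normalised. Per the submitters' processing notes, FastQC 0.10.1, HTSeq and genome build rn6 were used. The kit was stranded per the labels; the aligner, annotation and counting strand are not given in the sources used here, so overlapping or near-identical genes may share counts. The table held 24613 identifiers, with 0 rows that name no gene. Libraries of a group differed by 26.5 to 517 chi-square units per degree of freedom over 30 pairs, so none was taken for a copy. Low counts were removed with filterByExpr (minimum 10). All 20 libraries entered 1 robust quasi-likelihood fit (edgeR 4.0.16, R 4.3.3; 15 residual degrees of freedom), with Benjamini-Hochberg adjustment over 13398 genes; SE came from the fold change and the F statistic. Group values are means of 4 libraries; the design text says tissue came from each animal, but no label ties a library to an animal, so p-values measure the spread between libraries. DESeq2 1.42.0 and voom with sample weights (limma 3.58.1) were alternatives. The script was tested on simulated data; figures used matplotlib 3.10.9. The genes, groups of genes and named identifiers were chosen with earlier results of these data known, and gene lists that need symbols were not used. The labels give no batches. The naming rule for lack of symbols took, among genes with swimming means above and below contusion means, the most abundant and the most extreme.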

Additional observations from a re-analysis of the deposited data

Results flagged for a closer look

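In 4 of 45 groups of 4 values a single library stood far away from its group. About 2.25 such groups would be expected for normally distributed values. Some of the 45 are related measures of the same libraries, and the named genes were picked by their values. The number due to chance is therefore not known. Swimming library 2 held 30.6 CPM of ENSRNOG00000020514, and the next highest swimming library 11.7 CPM. In walking library 2 the 93 genes took 10.7% of all counts, and in the next lowest walking library 12.3%. Walking library 4 had 36604027 counts, and the next highest walking library 23665744. Uninjured library 4 had a scaling factor of 0.982, and the next lowest uninjured library 1.08.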

How the results depend on the processing

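Median-of-ratios scaling kept every count of called genes within 1.5 times its value. With library totals only, the set held 27 genes. The numbers called were 0 for walking against uninjured, 13 for swimming and 21 for walking against transection. Of all tested genes, 0.425%, 37.7% and 26.8% were called. Without the low-count filter, walking against uninjured gave 0, where 0.22% of all tested genes were called. With the compared groups alone, swimming gave 2 against contusion, 25 against uninjured and 33 against transection, and walking gave 10 against uninjured. In this order, 2.53%, 14%, 17.8% and 1.1% of all tested genes were called. DESeq2 and voom gave 3 and 3 for swimming against walking, 10 and 11 for swimming against contusion, and 21 and 21 for walking against uninjured. In these comparisons DESeq2 called 1.08%, 9.04% and 2.77% of all tested genes, and voom 2.33%, 13.1% and 2.9%. Without transection library 3 and swimming library 2, an alternative added after seeing the data, the set held 110 genes and walking against uninjured gave 17. The rule was looser there, as a transection library was missing. In that alternative 2.35% of all tested genes were called for walking against uninjured. There ENSRNOG00000018630 stood at -0.28 for swimming against walking and -0.011 for swimming against contusion; with voom it stood at -0.11 against walking. The causes were not tested.

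With the replicate number as a block (replicate block), swimming against contusion gave 3 genes and walking against uninjured 1. Of all tested genes, 2.56% and 0.508% were called there. No other count moved by over 1.5 times. Correlations of same-numbered libraries ran from 0.0464 to 0.428 for swimming and contusion, where 2 of 4 correlated best with their own number, and from -0.104 to 0.197 for swimming and walking, where 0 of 4 did. In the other 5 comparisons the lowest was between -0.286 and -0.0944. In no comparison did every pair exceed 0.1, so the numbers were not taken as pairs.

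With each library left out in turn, the set ranged from 88 to 143 genes. The rule is looser when a library of the 3 groups that chose the genes is left out. The numbers called are given with the range of the share called of all tested genes in brackets. They ranged from 0 to 5 for swimming against walking (0% to 2.19%) and 0 to 8 for swimming against contusion (0.00733% to 7.63%). Against uninjured they ranged from 33 to 45 for swimming (10.8% to 23.8%) and 0 to 15 for walking (0.0367% to 1.52%). Against transection they ranged from 44 to 70 for swimming (22.6% to 30.5%) and 45 to 72 for walking (14.2% to 22.2%). Walking against contusion stayed at 0. ENSRNOG00000018630 ranged from -0.27 to 0.28 for swimming against walking. At 4 libraries a group, log2 differences between swimming and walking had a median SE of 0.16 over the 93 genes.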
